A study of Homo sapiens with 15 samples.

Results

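The genes described here encode enzymes of the tricarboxylic acid (TCA) cycle and the isocitrate dehydrogenases. They were named by gene symbol: IDH1, IDH2, IDH3A, CS, OGDH, SUCLG1, FH, MDH1 and MDH2. A member's value came from probe sets that the platform's probe table pairs with that symbol alone, and 8 of the 9 genes had exactly 1 such probe set. FH, the fumarate hydratase gene, was not analysed here. All 8 passed the filter on dim signal, among 16005 genes tested of 18377 with a probe set of their own.

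RNA came from 15 cultures of the human line A549, derived from a lung adenocarcinoma, and each was measured on 1 Affymetrix whole-transcript array. The groups, of 3 cultures each, were hypoxic cells with 10 µM BB2-125, hypoxic cells with 10 µM BB2-162, hypoxic cells with 10 µM BB2-282, hypoxic cells with vehicle and normoxic cells with vehicle. Cells received a compound or vehicle for 6 h, and hypoxia then lasted 42 h in a gas-pack pouch. Every culture, vehicle or compound, contained 0.1% DMSO. The 3 compounds are known by code names, and the series asks how they act on signalling by hypoxia-inducible factor (HIF). Cultures with a compound in normoxia were not analysed here, so an effect on the hypoxic response and an effect independent of oxygen cannot be told apart.

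In the TCA cycle, acetyl groups from pyruvate are joined to oxaloacetate to make citrate, and the cycle then returns carbon dioxide, reducing power and oxaloacetate. Isocitrate is oxidised to 2-oxoglutarate by an NAD-dependent enzyme inside mitochondria and by separate NADP-dependent enzymes in the cytosol and in mitochondria. Isocitrate, malate and 2-oxoglutarate therefore have parallel routes in both compartments, linked by carriers in the inner mitochondrial membrane. 2-Oxoglutarate is also a cosubstrate of the hydroxylases that mark HIF for degradation. In hypoxic cells, HIF is known to divert pyruvate from the cycle, and reductive carboxylation of 2-oxoglutarate is known to supply part of the citrate for lipids.

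The deposited intensities were the authors' RMA values, given on the linear scale. Log2 differences below are limma differences with their standard error after ±, from 1 fit of the 15 arrays with 3 arrays in each group. A gene was called at a Benjamini-Hochberg adjusted p under 0.05 over all 16005 genes. Median intensity ran from 74.91 to 84.6 over the arrays. BB2-162 replicate 1 lay farther from its group than any other array. Its log2 values deviated from the group mean by 0.221 (root mean square over genes), and those of the remaining arrays by 0.0942 to 0.163. The members' differences with BB2-162, and the counts of called genes in the neighbouring lists with BB2-162 against hypoxic vehicle, are therefore also given without it, whereas the single list genes' values are from all arrays. Shares of all genes given beside counts that leave out an array are from all 15 arrays. Those shares moved as well. Without 1 array, 4067 to 7698 genes were called with BB2-162 against hypoxic vehicle, and 2645 to 6208 between BB2-125 and BB2-162. All 6 epithelial markers examined (EPCAM, CDH1, KRT7, KRT8, KRT18, KRT19) had group means above the dim filter, the 25th percentile of an array's probe sets, in each of the 5 groups. Summed signal ran from 20421 to 22839 with BB2-125, 16217 to 20399 with BB2-162, 15133 to 17569 with BB2-282, 17578 to 19037 in hypoxic vehicle and 22862 to 24429 in normoxic vehicle cultures. The corresponding sums over all groups were 336 to 454 for 5 fibroblast markers, 156 to 216 for 4 of 5 leukocyte markers and 172 to 246 for 5 endothelial markers, with 3, 3 and at least 4 of them above the filter in each group. The part of these markers in the results below was not tested. The lowest log2 value of any member was 7.07, for OGDH with BB2-162, against a highest filter level of 4.90.

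IDH1 encodes the NADP-dependent isocitrate dehydrogenase of the cytosol and peroxisomes. Its intensity was 1212, 1422 and 1245 with BB2-125, 458, 342 and 303 with BB2-162 and 249.7, 189.7 and 257 with BB2-282. It was 250.3, 249 and 226 in hypoxic vehicle cultures and 2951, 2841 and 3074 in normoxic vehicle cultures. The normoxic arrays were the highest, the BB2-125 arrays came next without touching any other group, and the BB2-282 arrays overlapped the hypoxic vehicle arrays. Hypoxia lowered IDH1 by a log2 difference of -3.61 ± 0.14 (adjusted p = 2.16e-13), which leaves 0.0817 of the normoxic signal. In hypoxic cells IDH1 rose by 2.42 ± 0.14 with BB2-125 (adjusted p = 1.07e-09), a 5.34-fold difference. With BB2-162 it rose by 0.58 ± 0.14 (adjusted p = 0.00342), and without BB2-162 replicate 1 by 0.41 (adjusted p = 0.013). With BB2-282 the difference was -0.07 ± 0.14 (adjusted p = 0.839), with a 95% interval from -0.36 to 0.22. All 3 comparisons use the same hypoxic vehicle arrays as the hypoxia comparison. From bulk RNA, less transcript per cell and fewer cells with the transcript cannot be told apart.

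IDH1 with BB2-125 stayed below the normoxic level, at -1.20 ± 0.14 (adjusted p = 6.24e-07). Against normoxic vehicle it was also lower with BB2-162 (-3.03 ± 0.14, adjusted p = 1.57e-12; -3.20 without BB2-162 replicate 1) and BB2-282 (-3.68 ± 0.14, adjusted p = 1.22e-13). In order of level, the groups were normoxic vehicle, BB2-125, BB2-162, hypoxic vehicle and BB2-282, and of these neighbours only the last pair, BB2-282 and hypoxic vehicle, did not differ past the threshold.

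IDH2 encodes the NADP-dependent isocitrate dehydrogenase of mitochondria. Its intensity was 655, 613 and 721 with BB2-125, 316, 302 and 273 with BB2-162 and 784, 826 and 749.8 with BB2-282. It was 665, 556 and 596 in hypoxic vehicle cultures and 470.3, 477 and 455 in normoxic vehicle cultures. The BB2-162 arrays were the lowest and the BB2-282 arrays the highest, and neither overlapped another group. IDH2 was the only one of the 8 genes to rise in hypoxia, by 0.37 ± 0.10 (adjusted p = 0.0038). It fell with BB2-162 by a log2 difference of -1.03 ± 0.10 (adjusted p = 4.16e-07), to -0.66 ± 0.10 relative to normoxia (adjusted p = 1.15e-05). Without BB2-162 replicate 1 these differences were -1.07 and -0.70. IDH2 rose with BB2-282 by 0.38 ± 0.10 (adjusted p = 0.0147). That call ended without hypoxic vehicle replicate 2 (0.32, adjusted p = 0.0806) and without BB2-282 replicate 2 (0.34, adjusted p = 0.0764). With BB2-125 the difference was 0.13 ± 0.10 (adjusted p = 0.381), with an interval from -0.08 to 0.34.

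IDH3A encodes the catalytic subunit of the NAD-dependent isocitrate dehydrogenase, the form that works in the TCA cycle itself. Its intensity was 593, 662 and 625 with BB2-125, 569, 409 and 346 with BB2-162 and 324, 361 and 346 with BB2-282. It was 544, 701 and 411 in hypoxic vehicle cultures and 2169, 2121 and 2219 in normoxic vehicle cultures. The normoxic arrays stood far above all hypoxic arrays, whereas the hypoxic vehicle arrays were spread widely and overlapped those with BB2-125 and BB2-162. Hypoxia lowered IDH3A by -2.01 ± 0.17 (adjusted p = 6.88e-09). IDH3G (-0.24 ± 0.11, adjusted p = 0.066) and IDH3B (-0.07 ± 0.10, adjusted p = 0.546), genes of the enzyme's other subunits, did not pass in hypoxia. IDH3A fell further with BB2-282, by a log2 difference of -0.65 ± 0.17 (adjusted p = 0.0136). This call ended without hypoxic vehicle replicate 1 (adjusted p = 0.0519), hypoxic vehicle replicate 2 (-0.46, adjusted p = 0.0902) or BB2-282 replicate 1 (adjusted p = 0.0565). The difference with BB2-125 was 0.21 ± 0.17 (adjusted p = 0.402), and it was 0.02 without hypoxic vehicle replicate 3 and 0.40 without hypoxic vehicle replicate 2, neither passing. With BB2-162 it was -0.32 ± 0.17 (adjusted p = 0.137). The value with BB2-162 passed without BB2-162 replicate 1 (-0.52, adjusted p = 0.0119) and without hypoxic vehicle replicate 3 (-0.52, adjusted p = 0.0187).

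The start regions of the 3 isocitrate dehydrogenase genes among the members are shown because hypoxia moved these genes in opposite directions. Whether the starts shown are those used in A549 cells was not tested. Each window holds 250 bases before to 50 after a transcription start in RefSeq, build GRCh38.p14, read 5′ to 3′ on the gene's strand. IDH1 has a window at chr2:208254409-208254708 (window A, minus strand) and another at chr2:208255022-208255321 (window B, minus strand). IDH2 has one at chr15:90100572-90100871 (minus strand) and IDH3A one at chr15:78149112-78149411 (plus strand). Capitals mark the letters ACGTG or GCGTG, the core of the hypoxia response element, and TGACNNNGC, the core of the antioxidant response element, on either strand.
IDH1 window A: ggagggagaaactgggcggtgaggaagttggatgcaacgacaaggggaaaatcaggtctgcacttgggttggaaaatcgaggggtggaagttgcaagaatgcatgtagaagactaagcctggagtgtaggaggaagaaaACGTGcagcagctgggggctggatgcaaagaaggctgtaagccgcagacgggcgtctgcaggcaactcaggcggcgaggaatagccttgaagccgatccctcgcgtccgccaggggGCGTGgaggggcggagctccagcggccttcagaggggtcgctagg
IDH1 window B: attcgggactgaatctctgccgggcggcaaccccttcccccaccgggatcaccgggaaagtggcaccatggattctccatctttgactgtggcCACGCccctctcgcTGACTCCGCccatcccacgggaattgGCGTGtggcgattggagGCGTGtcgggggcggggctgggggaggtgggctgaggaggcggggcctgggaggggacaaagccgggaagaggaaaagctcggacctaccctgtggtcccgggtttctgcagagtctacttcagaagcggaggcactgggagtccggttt
IDH2 window: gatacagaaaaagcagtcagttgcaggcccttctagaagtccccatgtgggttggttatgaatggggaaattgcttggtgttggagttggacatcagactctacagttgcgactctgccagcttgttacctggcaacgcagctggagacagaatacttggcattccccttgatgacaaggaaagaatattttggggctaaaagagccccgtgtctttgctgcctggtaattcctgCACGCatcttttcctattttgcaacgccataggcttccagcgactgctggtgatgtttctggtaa
IDH3A window: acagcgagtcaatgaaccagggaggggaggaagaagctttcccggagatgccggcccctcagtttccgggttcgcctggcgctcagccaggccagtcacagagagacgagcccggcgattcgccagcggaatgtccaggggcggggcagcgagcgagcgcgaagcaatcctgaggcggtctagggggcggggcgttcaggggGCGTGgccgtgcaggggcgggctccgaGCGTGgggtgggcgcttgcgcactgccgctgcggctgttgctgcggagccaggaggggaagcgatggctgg
ACGTG occurred 1 time in window A of IDH1 and 0 times in the other 3 windows shown. GCGTG occurred 1 time in window A and 3 times in window B of IDH1, 1 time in IDH2 and 2 times in IDH3A. TGACNNNGC occurred 1 time, in window B of IDH1. Of 35116 windows of this length in the table, 21.4% held ACGTG, 36.5% held GCGTG, 48.4% held at least one of these and 13.3% held TGACNNNGC. These are matches of letters and say nothing of binding. RefSeq windows were matched for 8 of the 9 named genes, the one not matched being OGDH. Among the windows not shown, those of CS, MDH1 and MDH2 held none of these motifs. The SUCLG1 window held GCGTG 1 time and TGACNNNGC 1 time, and the FH window held GCGTG 2 times. Any link between motifs and the changes in hypoxia was not tested.

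**Figure D1:**
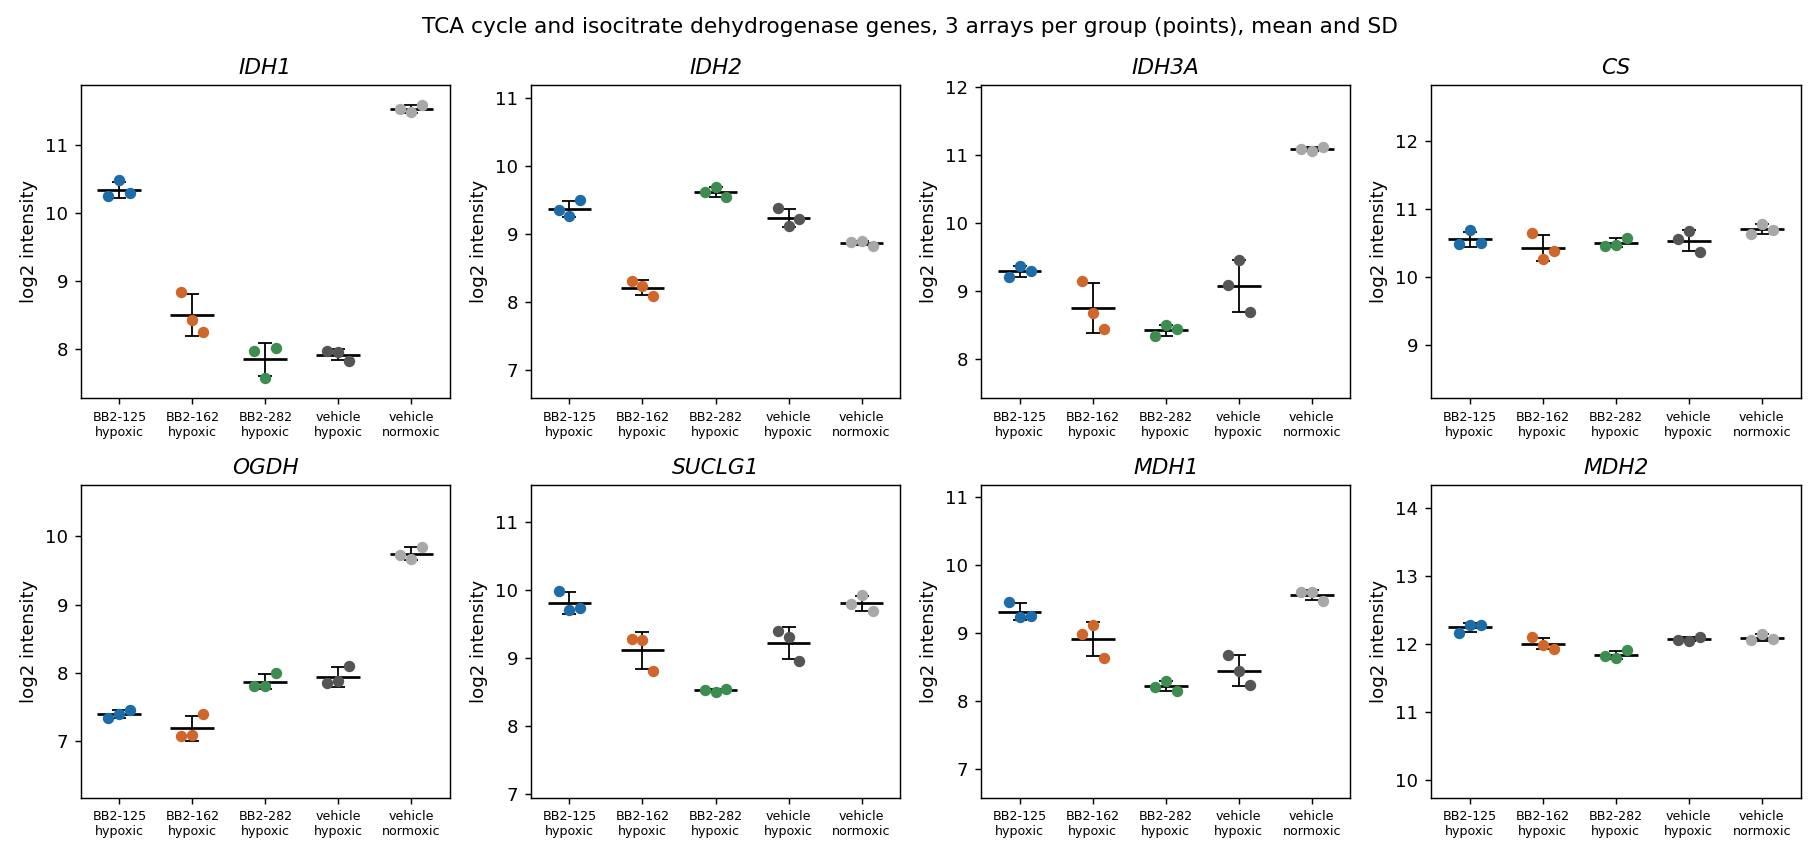
Log2 intensity (y axis, each panel spanning the same log2 range) of the 8 genes in the 5 groups (x axis), with a point per array, the mean as a bar and the SD as whiskers (n = 3). IDH1 lay at a mean of 10.33 with BB2-125, 7.91 in hypoxic vehicle and 11.53 in normoxic vehicle cultures, and IDH2 was lowest with BB2-162, at 8.21.

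CS encodes citrate synthase, which joins acetyl-CoA to oxaloacetate. Its intensity ran from 1439.8 to 1653 with BB2-125, 1233 to 1602 with BB2-162, 1406 to 1534 with BB2-282, 1323 to 1642 in hypoxic vehicle and 1591 to 1767 in normoxic vehicle cultures. The hypoxic groups overlapped one another throughout. The hypoxia difference was -0.17 ± 0.11 (adjusted p = 0.203), and the differences of the compounds from hypoxic vehicle ran from -0.11 to 0.02, none passing. Their 95% intervals lay between -0.34 and 0.26. The value with BB2-162 was -0.21 without BB2-162 replicate 1 (adjusted p = 0.117). CS fell with BB2-162 relative to normoxia by a log2 difference of -0.27 ± 0.11 (adjusted p = 0.0337), with overlapping groups, and by -0.38 without BB2-162 replicate 1 (adjusted p = 0.0045). That call ended after quantile normalization (-0.13, adjusted p = 0.236), in a fit of both groups alone (adjusted p = 0.0769) and without normoxic vehicle replicate 2 or 3 (adjusted p = 0.108 and 0.0635) or BB2-162 replicate 2 or 3 (adjusted p = 0.157 and 0.0858).

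OGDH encodes the 2-oxoglutarate-decarboxylating subunit of the 2-oxoglutarate dehydrogenase complex. Its intensity was 161, 169 and 174 with BB2-125, 135, 136 and 168 with BB2-162 and 224, 223 and 256 with BB2-282. It was 229, 234 and 274 in hypoxic vehicle cultures and 844, 813 and 922 in normoxic vehicle cultures. All arrays with BB2-125 and BB2-162 lay below all hypoxic vehicle arrays, and those with BB2-282 overlapped them. Hypoxia lowered OGDH by -1.81 ± 0.11 (adjusted p = 8.3e-11). It fell further with BB2-125, by a log2 difference of -0.55 ± 0.11 (adjusted p = 0.000821), and with BB2-162, by -0.75 ± 0.11 (adjusted p = 3.85e-05; -0.70 without BB2-162 replicate 1). With BB2-282 the difference was -0.07 ± 0.11 (adjusted p = 0.79), with an interval from -0.30 to 0.16.

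SUCLG1 encodes the alpha subunit of succinyl-CoA ligase, which makes a nucleoside triphosphate directly in the cycle. Its intensity was 1014, 829 and 854 with BB2-125, 620.4, 612 and 446 with BB2-162 and 369, 362 and 373 with BB2-282. It was 670.4, 631 and 495 in hypoxic vehicle cultures and 886, 967 and 827 in normoxic vehicle cultures. The BB2-125 arrays overlapped the normoxic arrays, and the BB2-282 arrays lay below every other array. Hypoxia lowered SUCLG1 by -0.59 ± 0.14 (adjusted p = 0.00118). It rose with BB2-125 by 0.59 ± 0.14 (adjusted p = 0.00258), and its difference from normoxia was then 0.01 ± 0.14 (adjusted p = 0.974, interval -0.28 to 0.29). It fell with BB2-282 by a log2 difference of -0.69 ± 0.14 (adjusted p = 0.00209), and with BB2-162 the difference was -0.10 ± 0.14 (adjusted p = 0.558; -0.19 without BB2-162 replicate 1). This last value was -0.23 without hypoxic vehicle replicate 3 and 0.05 without BB2-162 replicate 3, neither passing.

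MDH1 encodes the cytosolic malate dehydrogenase, part of the malate-aspartate shuttle that carries reducing power into mitochondria. Its intensity was 701, 602 and 606 with BB2-125, 506, 554 and 396 with BB2-162 and 294, 314 and 284 with BB2-282. It was 409.9, 346 and 300.2 in hypoxic vehicle cultures and 779, 777 and 708 in normoxic vehicle cultures. The BB2-125 arrays lay between the hypoxic vehicle and the normoxic arrays, touching neither. Hypoxia lowered MDH1 by -1.11 ± 0.13 (adjusted p = 5.75e-07), and it rose with BB2-125 by 0.86 ± 0.13 (adjusted p = 4.88e-05). It rose with BB2-162 by 0.46 ± 0.13 (adjusted p = 0.0101; 0.42 and 0.0217 without BB2-162 replicate 1), with overlapping groups. That call ended without BB2-162 replicate 2 (0.36, adjusted p = 0.06) and in a fit of both groups alone (adjusted p = 0.0607). With BB2-282 the difference was -0.23 ± 0.13 (adjusted p = 0.29).

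MDH2 encodes the mitochondrial malate dehydrogenase, which returns malate to oxaloacetate in the cycle. Its intensity ran from 4581 to 4974 with BB2-125, 3901 to 4391 with BB2-162, 3551 to 3844 with BB2-282, 4222 to 4401 in hypoxic vehicle and 4252 to 4520 in normoxic vehicle cultures. The hypoxia difference was -0.02 ± 0.09 (adjusted p = 0.846), with an interval from -0.20 to 0.16. After quantile normalization it was -0.21 (adjusted p = 0.0372). None of the compound differences from hypoxic vehicle passed, at 0.17 ± 0.09 with BB2-125, -0.07 ± 0.09 with BB2-162 (-0.11 without BB2-162 replicate 1) and -0.23 ± 0.09 with BB2-282, the lowest adjusted p being 0.0968. MDH2 fell with BB2-282 relative to normoxia, by a log2 difference of -0.25 ± 0.09 (adjusted p = 0.0184). That call ended without normoxic vehicle replicate 2 (adjusted p = 0.0628), BB2-282 replicate 1 (adjusted p = 0.0544) or BB2-282 replicate 2 (adjusted p = 0.0651).

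In hypoxia against normoxia, 5 of the 8 genes fell (IDH1, IDH3A, OGDH, MDH1 and SUCLG1), 1 rose (IDH2), and CS and MDH2 did not pass. Of all genes tested, 57.5% were called in this comparison, 29.4% as lower and 28.2% as higher. The median log2 difference was -0.85 over the 8 and 0.09 over every gene tested, and 4 members fell at least 2-fold. Of the 16005 genes tested, 2732 were called with a difference of at least 2-fold in either direction. With BB2-125 against hypoxic vehicle, 3 genes rose (IDH1, MDH1, SUCLG1) and 1 fell (OGDH), with 28.4% of all genes called, 13.3% as higher and 15% as lower. The median of the 8 was 0.19, against 0.02 over all genes. With BB2-162, 2 rose (IDH1, MDH1) and 2 fell (IDH2, OGDH), with 36.1% of all genes called, 15.7% as higher and 20.4% as lower, and the median was -0.10 against 0.06. With BB2-282, 1 rose (IDH2) and 2 fell (IDH3A, SUCLG1), with 13.6% of all genes called, 5.65% as higher and 7.94% as lower, and the median was -0.15 against 0.02. The count with BB2-162 was 5 without BB2-162 replicate 1, where IDH3A was also called lower (-0.52, adjusted p = 0.0119). The count with BB2-282 was 1 without hypoxic vehicle replicate 2.

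**Figure D2:**
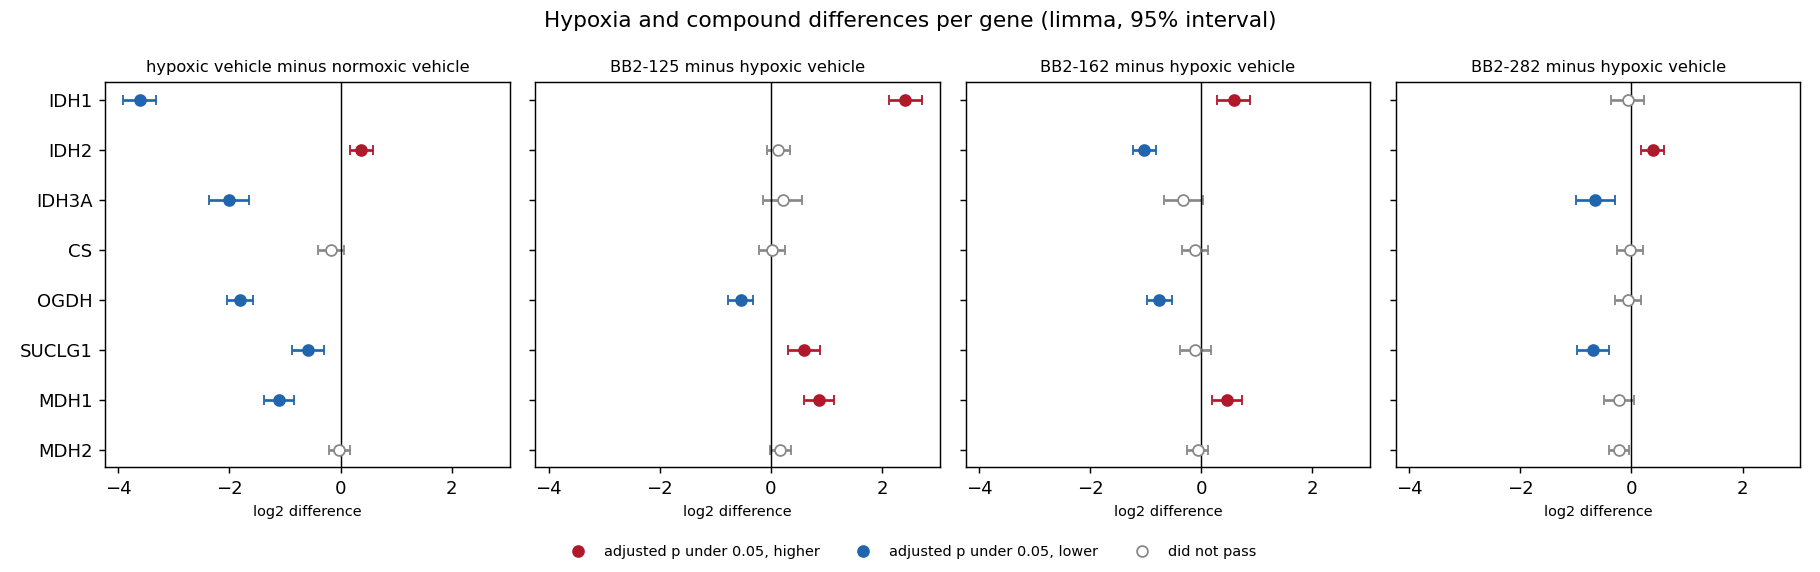
Log2 differences (x axis) of the 8 genes (y axis) for hypoxia and for each compound, with 95% intervals from limma. IDH1 has the lowest value under hypoxia (-3.61) and the highest with BB2-125 (2.42), while IDH2 is higher in hypoxia (0.37) and lower with BB2-162 (-1.03).

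Relative to normoxic vehicle, 4 of the 8 genes were called with BB2-125, where 62% of all genes were called, 31.5% as higher and 30.5% as lower. IDH1, IDH3A (-1.79 ± 0.17) and OGDH (-2.36 ± 0.11) were lower, and IDH2 was higher (0.50 ± 0.10). MDH1 (-0.25 ± 0.13, adjusted p = 0.1) did not pass, although its groups did not overlap, and in a fit of both groups alone its adjusted p was 0.0434. With BB2-162, 7 of 8 were lower, with 76.8% of all genes called, 34.4% as lower, and MDH2 (-0.09 ± 0.09, adjusted p = 0.369) did not pass except after quantile normalization (-0.22, adjusted p = 0.0275). With BB2-282, 6 were lower and IDH2 was higher (0.75 ± 0.10, adjusted p = 2.49e-06), with 64.8% of all genes called, 33.4% as higher and 31.4% as lower, and CS (-0.20 ± 0.11, adjusted p = 0.122) did not pass. IDH3A stood at -2.33 ± 0.17 with BB2-162 and -2.66 ± 0.17 with BB2-282 relative to normoxia. OGDH stood at -2.56 ± 0.11 with BB2-162 and -1.88 ± 0.11 with BB2-282. SUCLG1 stood at -0.69 ± 0.14 with BB2-162 and -1.28 ± 0.14 with BB2-282, and MDH1 at -0.65 ± 0.13 with BB2-162 and -1.34 ± 0.13 with BB2-282. Without BB2-162 replicate 1 the same number of members, 7, was called with BB2-162, at -2.53 for IDH3A, -2.51 for OGDH, -0.77 for SUCLG1 and -0.69 for MDH1, and MDH2 was at -0.13 (adjusted p = 0.176).

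The compounds were compared with each other at the same dose and times, in 3 pairs. The differences use no vehicle array, but the standard errors and p-values rest on the spread over all 15 arrays. Between BB2-125 and BB2-162, 5 of the 8 genes were higher with BB2-125 and 0 lower, where 26.1% of all genes were called, 16.7% as higher and 9.43% as lower. IDH1 differed by 1.83 ± 0.14 (adjusted p = 1.3e-07), IDH2 by 1.16 ± 0.10 (adjusted p = 2.95e-07) and SUCLG1 by 0.69 ± 0.14 (adjusted p = 0.00101). IDH3A (0.54 ± 0.17, adjusted p = 0.025) and MDH1 (0.40 ± 0.13, adjusted p = 0.0287) were nearer the threshold, and the count was 3 without BB2-162 replicate 3. IDH3A then had an adjusted p of 0.15 and MDH1 of 0.174. The IDH3A call also ended without BB2-125 replicate 2 (adjusted p = 0.0723), BB2-125 replicate 3 (0.0594) or BB2-162 replicate 2 (0.0735). The MDH1 call also ended without BB2-125 replicate 1 (adjusted p = 0.123), after quantile normalization (0.0837) and in a fit of both groups alone (0.0809). Without BB2-162 replicate 1 the count was 6, with MDH2 at 0.28 (adjusted p = 0.0202) in place of 0.24 ± 0.09 (adjusted p = 0.0534). MDH2 also passed after median centring, with the stricter dim filter, with an intensity trend and with a pseudocount of 16 (adjusted p from 0.0281 to 0.0411). OGDH differed by 0.21 ± 0.11 (adjusted p = 0.166, interval -0.02 to 0.44) and CS by 0.13 ± 0.11 (adjusted p = 0.408, interval -0.11 to 0.36). Without BB2-162 replicate 1 the differences were 2.004 for IDH1, 1.21 for IDH2, 0.73 for IDH3A, 0.78 for SUCLG1 and 0.44 for MDH1, all passing, and 0.15 for OGDH and 0.23 for CS, which did not.

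Between BB2-125 and BB2-282, 5 genes were higher with BB2-125 and 1 was lower, where 36.3% of all genes were called, 18.7% as higher and 17.6% as lower. IDH1 differed by 2.49 ± 0.14 (adjusted p = 4.76e-10), SUCLG1 by 1.28 ± 0.14 (adjusted p = 6.17e-07), MDH1 by 1.10 ± 0.13 (adjusted p = 2.13e-06) and IDH3A by 0.87 ± 0.17 (adjusted p = 0.000401). MDH2 was higher by 0.40 ± 0.09 (adjusted p = 0.0012), a call that ended after quantile normalization (0.18, adjusted p = 0.0965). OGDH was lower by -0.48 ± 0.11 (adjusted p = 0.00178). IDH2 differed by -0.25 ± 0.10 (adjusted p = 0.0583, interval -0.46 to -0.04) and passed after quantile normalization (-0.29, adjusted p = 0.0261). It also passed without BB2-125 replicate 3 or BB2-162 replicate 1, with the stricter dim filter, with a pseudocount of 16 and in a fit of both groups alone (adjusted p from 0.0382 to 0.0459).

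Between BB2-162 and BB2-282, 3 genes were higher with BB2-162 and 2 were lower, where 35.8% of all genes were called, 15.6% as higher and 20.3% as lower. IDH1 (0.65 ± 0.14, adjusted p = 0.0012), SUCLG1 (0.59 ± 0.14, adjusted p = 0.00228) and MDH1 (0.69 ± 0.13, adjusted p = 0.000354) were higher. IDH2 (-1.41 ± 0.10, adjusted p = 7.63e-09) and OGDH (-0.68 ± 0.11, adjusted p = 8.1e-05) were lower. The same 5 calls were made without BB2-162 replicate 1, with IDH1 at 0.48, SUCLG1 at 0.51, MDH1 at 0.66, IDH2 at -1.45 and OGDH at -0.63. IDH3A (0.33 ± 0.17, adjusted p = 0.133, interval -0.02 to 0.68; 0.49 and 0.0383 without BB2-162 replicate 3), CS (-0.07 ± 0.11) and MDH2 (0.16 ± 0.09) did not pass. Without BB2-162 replicate 1 these were 0.13 for IDH3A, -0.18 for CS and 0.12 for MDH2.

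**Figure D3:**
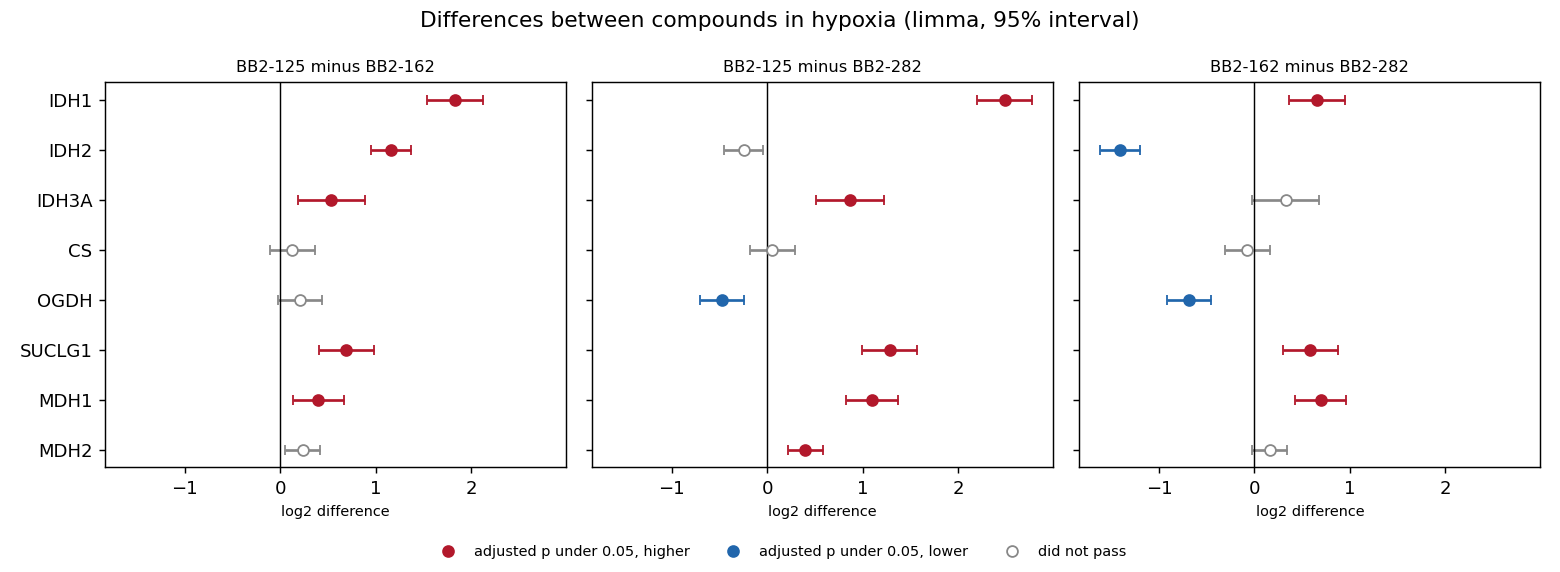
Log2 differences (x axis) of the 8 genes (y axis) between pairs of compounds in hypoxia, with 95% intervals from limma. All 8 differences of BB2-125 from BB2-162 are above 0, from 0.13 to 1.83, as are those of 7035 of all 16005 genes. CS, OGDH and MDH2 do not pass there. IDH1, IDH2, SUCLG1 and MDH1 are called between BB2-162 and both other compounds, and of these IDH2 is lower with BB2-162 than with either.

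Cytosolic and mitochondrial enzymes of the same reaction were set against each other within each array, which compares changes and not levels. The log2 ratio of IDH1 to IDH2 averaged 0.96 ± 0.22 with BB2-125, 0.29 ± 0.21 with BB2-162, -1.77 ± 0.31 with BB2-282, -1.32 ± 0.14 in hypoxic vehicle and 2.66 ± 0.09 in normoxic vehicle cultures (SD, n = 3). Hypoxia moved this ratio by -3.98 ± 0.15 (SE, adjusted p = 1.46e-13). BB2-125 moved it by 2.29 ± 0.15 (adjusted p = 3.5e-09) and BB2-162 by 1.61 ± 0.15 (adjusted p = 2.7e-07; 1.49 without BB2-162 replicate 1). With BB2-125 IDH1 rose while IDH2 did not pass, and with BB2-162 IDH1 rose and IDH2 fell. With BB2-282 the ratio differed by -0.45 ± 0.15 (adjusted p = 0.0542).

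The log2 ratio of MDH1 to MDH2 averaged -2.93 ± 0.19 with BB2-125, -3.09 ± 0.22 with BB2-162, -3.63 ± 0.13 with BB2-282, -3.62 ± 0.25 in hypoxic vehicle and -2.53 ± 0.08 in normoxic vehicle cultures (SD, n = 3). Hypoxia moved it by -1.09 ± 0.14 (SE, adjusted p = 1.56e-06), BB2-125 by 0.69 ± 0.14 (adjusted p = 0.000728) and BB2-162 by 0.53 ± 0.14 (adjusted p = 0.00618; 0.54 without BB2-162 replicate 1). With BB2-282 the difference was -0.0039 ± 0.14 (adjusted p = 0.993, interval -0.29 to 0.28).

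**Figure D4:**
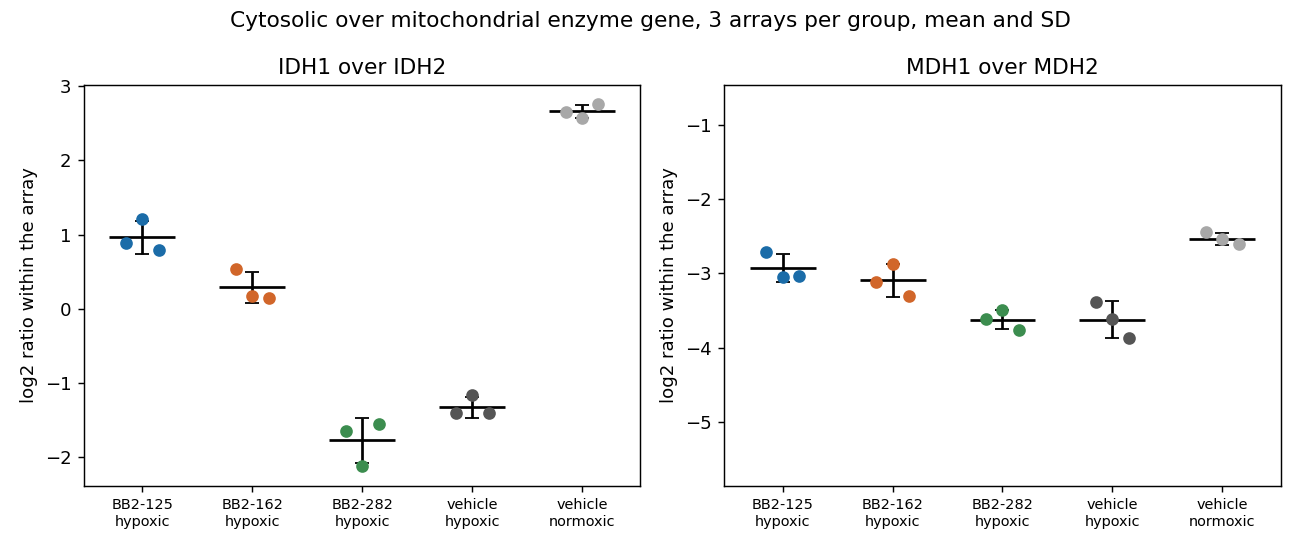
Log2 ratio within each array (y axis) of IDH1 to IDH2 and of MDH1 to MDH2 in the 5 groups (x axis), with a point per array, the mean as a bar and the SD as whiskers (n = 3). The ratio of IDH1 to IDH2 lies at a mean of 0.96 with BB2-125, -1.32 in hypoxic vehicle and 2.66 in normoxic vehicle cultures.

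The other enzymes of the cycle were examined as a list, of which 10 of 12 were tested. In hypoxia 5 fell and 0 rose, with a median of -0.27, where 29.4% of all genes fell and 57.5% were called. SDHC, a membrane subunit of succinate dehydrogenase, fell by a log2 difference of -1.71 ± 0.13, SUCLA2, an ATP-forming beta subunit that partners SUCLG1, by -1.66 ± 0.12, and DLD, the dihydrolipoamide dehydrogenase shared by the 2-oxoglutarate and pyruvate complexes, by -1.43 ± 0.12 (highest adjusted p = 4.91e-09). With BB2-125, SDHD (0.55 ± 0.10) and IDH3B (0.31 ± 0.10, adjusted p = 0.0224) rose and DLST (-0.39 ± 0.11, adjusted p = 0.00951), a core subunit of the complex that holds OGDH, fell. Of all genes, 28.4% were called in this comparison, and only 1 of the list was called without BB2-125 replicate 3. With BB2-162, 5 fell and 0 rose (6 called without BB2-162 replicate 1), where 20.4% of all genes fell, led by SDHC (-0.77 ± 0.13), SUCLG2 (-0.69 ± 0.16), the GTP-forming beta subunit that partners SUCLG1, and SUCLA2 (-0.52 ± 0.12). With BB2-282, SUCLA2 (-0.77 ± 0.12) and SUCLG2 (-0.70 ± 0.16) fell, as did SUCLG1, where 7.94% of all genes fell.

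Of 7 genes for the entry of pyruvate, 6 fell in hypoxia and 0 rose, with a median of -0.72, where 29.4% of all genes fell. The pyruvate dehydrogenase subunit genes DLAT (-1.68 ± 0.12), PDHB (-1.71 ± 0.14) and PDHA1 (-1.40 ± 0.12) had the lowest p. With BB2-125, 2 rose and 2 fell, where 13.3% of all genes rose and 15% fell. They included PC, the pyruvate carboxylase that refills oxaloacetate (-0.94 ± 0.13), MPC1 (-0.62 ± 0.12) and MPC2 (0.44 ± 0.12), the subunits of the mitochondrial pyruvate carrier. With BB2-162, 4 fell and 0 rose (4 called without BB2-162 replicate 1), where 20.4% of all genes fell, with PC at -1.38 ± 0.13, PDHA1 at -0.68 ± 0.12 and PDHB at -0.52 ± 0.14. With BB2-282, MPC1 (-0.68 ± 0.12), PDHX (-0.70 ± 0.17) and MPC2 (-0.43 ± 0.12) fell, where 7.94% of all genes fell, and 1 was called without hypoxic vehicle replicate 1.

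Of 12 genes for citrate export and the malate and aspartate shuttles, 11 fell in hypoxia and 0 rose, with a median of -1.30, where 29.4% of all genes fell and 28.2% rose. The aspartate-glutamate carriers SLC25A13 (-2.36 ± 0.10) and SLC25A12 (-1.54 ± 0.10) and the citrate-cleaving enzyme ACLY (-1.78 ± 0.14) had the lowest p. With BB2-125, 8 rose and 2 fell, with a median of 0.54, where 13.3% of all genes rose and 15% fell. GOT1, the cytosolic aspartate aminotransferase, rose by 1.05 ± 0.14 and SLC25A10, the dicarboxylate carrier, by 0.72 ± 0.13, while ACO1, the cytosolic aconitase that also serves as an iron sensor, fell by a log2 difference of -0.91 ± 0.13. With BB2-162, 2 rose and 3 fell (7 called without BB2-162 replicate 1), where 15.7% of all genes rose and 20.4% fell, with SLC25A1, the citrate carrier, at -0.96 ± 0.12, ACO1 at -0.66 ± 0.13 and SLC25A13 at 0.44 ± 0.10. With BB2-282, GOT1 (-0.91 ± 0.14), SLC25A11, the 2-oxoglutarate carrier (-0.46 ± 0.11), and ACO1 (-0.46 ± 0.13) fell and 0 rose, where 7.94% of all genes fell.

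Of 4 tested genes for glutamine and 2-oxoglutarate handling, D2HGDH, the D-2-hydroxyglutarate dehydrogenase, rose in hypoxia (0.30 ± 0.11, adjusted p = 0.0249). This call ended without normoxic vehicle replicate 2 or hypoxic vehicle replicate 3, where 0 of the 4 were called. PCK2, the mitochondrial phosphoenolpyruvate carboxykinase, rose with BB2-125 (0.52 ± 0.10) and with BB2-282 (0.37 ± 0.10, adjusted p = 0.0189), the second ending without hypoxic vehicle replicate 2 or BB2-282 replicate 1 or 3. SLC1A5, a glutamine transporter (-0.64 ± 0.13), and OAT, ornithine aminotransferase (-0.53 ± 0.11), fell with BB2-162, and 2 were also called without BB2-162 replicate 1. In these 4 comparisons 57.5% of all genes were called in hypoxia, 28.4% with BB2-125, 36.1% with BB2-162 and 13.6% with BB2-282. Of 5 tested genes for cytosolic NADPH supply, to which IDH1 also contributes, 3 fell and 1 rose in hypoxia, with MTHFD1 at -1.62 ± 0.11, TALDO1 at -1.54 ± 0.11 and PGD at -0.77 ± 0.13. With BB2-125, MTHFD1 (0.59 ± 0.11), TKT (0.27 ± 0.09) and PGD (0.37 ± 0.13) rose, but 1 was called after median centring or quantile normalization and without hypoxic vehicle replicate 1 or 3 or BB2-125 replicate 2 or 3. With BB2-162, ALDH1L1 (0.36 ± 0.12, adjusted p = 0.0301) and MTHFD1 (-0.29 ± 0.11, adjusted p = 0.0489) were called with overlapping groups, 3 were called without BB2-162 replicate 1, and 0 were called after quantile normalization or without hypoxic vehicle replicate 1 or 2 or BB2-162 replicate 2 or 3. With BB2-282, PGD fell (-0.46 ± 0.13, adjusted p = 0.0262), and 0 were called after quantile normalization or without hypoxic vehicle replicate 1 or 2 or BB2-282 replicate 1 or 2.

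**Figure D5:**
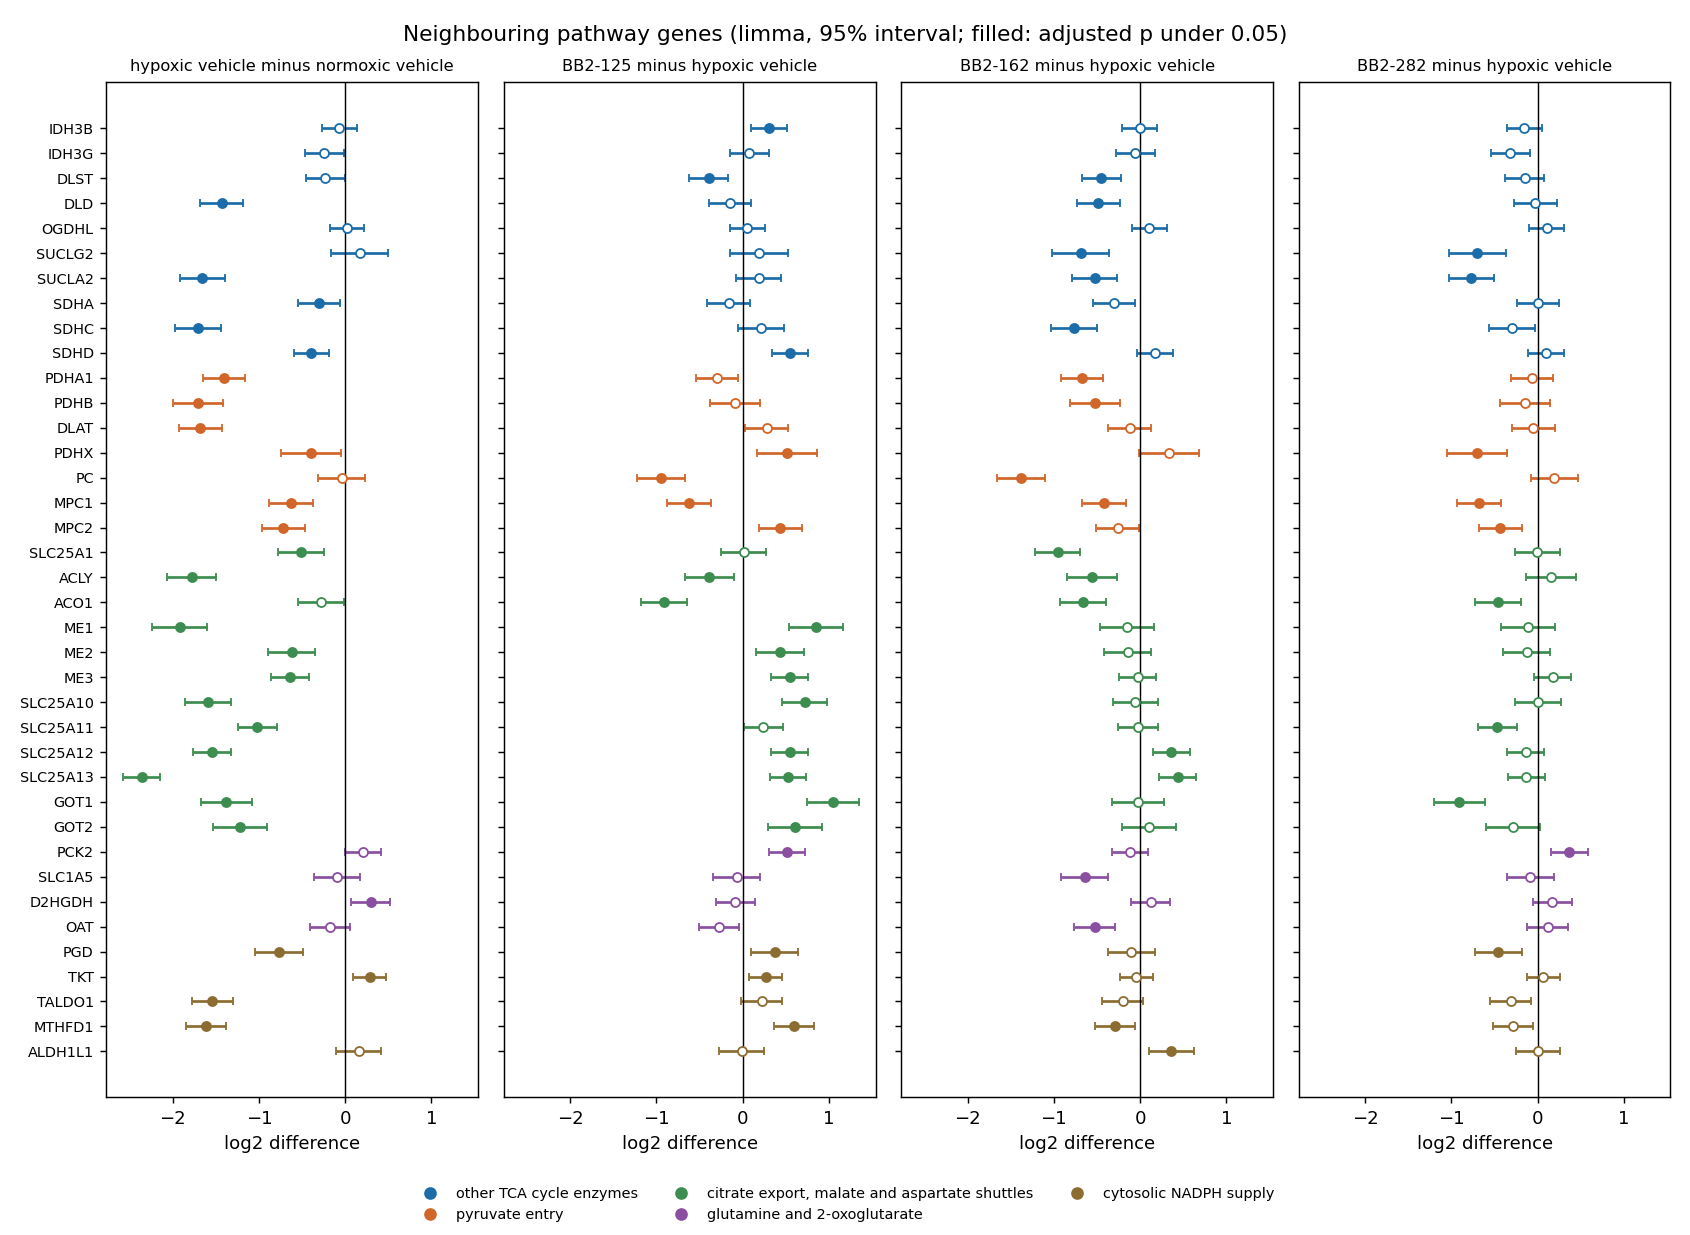
Log2 differences (x axis) of the tested genes of 5 neighbouring pathway lists (y axis, coloured by list) for hypoxia and for each compound, with 95% intervals from limma and filled points for adjusted p under 0.05. In the list of citrate export and shuttles, 11 of 12 genes are called lower in hypoxia, where 29.4% of all genes are. With BB2-125, 8 of 12 are called higher and 2 lower, where 13.3% of all genes are higher and 15% lower.

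For each member the genes of most similar pattern were found by the root mean square difference of log2 values over the 15 arrays, each gene centred on its own mean. IDH1, whose own SD over the arrays was 1.52, was nearest to AKR1B10 (0.35), CYP4F11 (0.37), C5 (0.38), H2AC4 (0.41) and SPA17 (0.42). AKR1B10 differed by -3.70 in hypoxia, by 1.80 with BB2-125, by 0.49 with BB2-162 and by -0.39 with BB2-282. IDH2 was nearest to ETNK2 (0.15) and IL10RB (0.19), IDH3A to KYNU (0.12) and NETO2 (0.13), and OGDH to DNAJC11 (0.16) and EXOC7 (0.17). SUCLG1 was nearest to ORC5 (0.10) and LSM5 (0.11), and MDH1 to GDE1 (0.14) and HSD17B10 (0.14). CS, nearest to UBQLN1 (0.08) and GSTM5 (0.08), and MDH2, nearest to EIF3K (0.06) and COX4I1 (0.07), each had an SD of only 0.14 over the arrays. None of the genes named here as nearest is itself a member.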

How the data were processed

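Total RNA of 15 A549 cultures was hybridised to 15 Affymetrix arrays, 3 for each of 5 groups taken from the sample titles. The deposited values are intensities per probe set on the linear scale, made with RMA per the submitters' processing notes; the software, version and genome build are not given in the sources used here. The labels call the cultures biological replicates without saying how they were separated, so p-values measure the spread between these cultures, and precision is limited by there being 3 arrays a group. Of 28869 probe sets, 19310 had 1 gene symbol, 1752 had several and the rest were unnamed; symbols were updated through the Entrez ID. Each gene kept the probe set of highest mean log2 value, and genes above the array's 25th percentile on at least 3 arrays were tested. Log2 values were fitted with limma 3.58.1 in R 4.3.3 (10 residual and 7.96 prior degrees of freedom) in 10 comparisons. The method was also run on simulated data with independent noise and a change planted in 1 group. Those data held no outlying array and no correlated cultures, so the run does not bear on these. The within-array ratios were added to that table as further features. No 2 arrays were identical, with 0 such pairs.

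The members and lists were chosen with earlier results of these data known. The text names all members in each comparison, up to 3 genes of lowest p in each list, and for IDH1 the 5 and for other members the 2 genes of nearest pattern. IDH3B and IDH3G in hypoxia are named besides, as partners of IDH3A. Same-numbered cultures of hypoxic vehicle and BB2-125 deviated together (correlations of 0.189 to 0.328), whereas in the other 9 comparisons at least 1 such correlation was 0.0873 or lower. Alternatives were median centring, quantile normalization, other dim filters, averaged probe sets, an intensity trend, a pseudocount of 16, a fit of 2 groups alone, the replicate number as a block, and leaving out each array.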

Additional observations from a re-analysis of the deposited data

How the results depend on the processing

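Of 80 results (8 genes in 10 comparisons), 65 kept their side of the threshold under the 9 alternative settings and the 15 fits that left out 1 array, and 0 called values changed sign. The calls that ended or appeared in the 15 others stand beside their values in the text. The replicate number as a block was fitted with the same replicate effects in all 5 groups. It was thus no paired fit of BB2-125 with hypoxic vehicle, whose same-numbered cultures had correlations of 0.189 to 0.328. Those of BB2-282 with normoxic vehicle ran from 0.0873 to 0.344. Cultures of different number were not set beside them, so whether the replicate number pairs cultures was not tested. With the block, BB2-125 against hypoxic vehicle kept 4 called genes, and IDH1 stood at 2.42 (adjusted p = 1.4e-08). The block changed no call of a member. Among members' values that did not pass, leaving out 1 array turned some signs. Against hypoxic vehicle these were IDH1 (-0.15 to 0.07), OGDH (-0.13 to 0.01) and CS (-0.12 to 0.04) with BB2-282. They were also CS with BB2-125 (-0.06 to 0.09) and SUCLG1 with BB2-162 (-0.23 to 0.05). The sign turned too for MDH2 in hypoxia (-0.04 to 0.0049) and SUCLG1 with BB2-125 against normoxic vehicle (-0.08 to 0.06). Between compounds it turned for CS, in BB2-125 against BB2-282 (-0.01 to 0.09) and BB2-162 against BB2-282 (-0.18 to 0.01). The ratio of IDH1 to IDH2 with BB2-282 against hypoxic vehicle passed after quantile normalization (-0.48, adjusted p = 0.0448), with a dim filter at the 50th percentile (-0.45, adjusted p = 0.0456) and with log2 of the value plus 16 (-0.43, adjusted p = 0.0478). Without 1 array it ran from -0.56 to -0.27, and it passed without BB2-125 replicate 2, BB2-162 replicate 1 or BB2-282 replicate 3. The ratio of MDH1 to MDH2 with BB2-162 did not pass with an intensity trend (0.53, adjusted p = 0.092), a setting whose trend is fitted on gene levels and not on ratios. Without 1 array, the count of members called ran from 1 to 3 with BB2-282 against hypoxic vehicle, lowest without hypoxic vehicle replicate 2. It ran from 3 to 5 with BB2-162 against hypoxic vehicle, and from 3 to 6 between BB2-125 and BB2-162, there lowest without BB2-162 replicate 3.

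Of all genes, 5780 were called with BB2-162 against hypoxic vehicle and 3494 in a fit of those groups alone, and 4182 between BB2-125 and BB2-162, against 2582 in such a fit and 2645 without BB2-162 replicate 3. With BB2-282 against hypoxic vehicle 2176 were called, and 1222 without hypoxic vehicle replicate 1, 1352 without hypoxic vehicle replicate 2 and 1258 without BB2-282 replicate 2. After median centring, higher genes made up 28.2% of those called in place of 43.4% with BB2-162 against hypoxic vehicle, 74.4% in place of 63.9% between BB2-125 and BB2-162, and 32.9% in place of 43.4% between BB2-162 and BB2-282. The median of all genes with BB2-162 against normoxic vehicle was 0.14 as deposited and 0.03 after median centring. The causes were not tested.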

Other observations

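Counts of called genes in the neighbouring lists were also taken for 3 further comparisons, from the fit of all 15 arrays and without leaving out any array. Between BB2-125 and BB2-282, 6 of 10 other enzymes of the cycle were higher with BB2-125 and 0 lower, 3 of 7 pyruvate entry genes were higher and 1 lower, and 9 of 12 genes of citrate export and the shuttles were higher and 2 lower. In the same pair 0 of 4 genes of glutamine and 2-oxoglutarate handling were higher and 1 lower, and 3 of 5 genes of cytosolic NADPH supply were higher and 0 lower. Of all genes, 18.7% were higher and 17.6% lower.

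Relative to normoxic vehicle, the genes lower with BB2-125 were 5 of 10 in the cycle list, 6 of 7 for pyruvate entry, 9 of 12 for citrate export and the shuttles, 1 of 4 for glutamine and 3 of 5 for NADPH, where 30.5% of all genes were lower and 62% called. With BB2-282 they were 8 of 10, 6 of 7, 12 of 12, 0 of 4 and 3 of 5 in the same order of lists, where 31.4% of all genes were lower and 64.8% called. Genes higher than in normoxic vehicle were 1, 0, 0, 1 and 1 with BB2-125 and 0, 0, 0, 2 and 1 with BB2-282 in that order.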
